A study of Mus musculus with 2 samples.

Results

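The genes described here mark projection neurons of the olfactory bulb and of the claustrum and deep cortex, regions that adjoin the striatum or lie in front of it. They are 10 of the 36998 gene names on the array, with 6 for the olfactory bulb (*Cdhr1*, *Tbx21*, *Eomes*, *Doc2g*, *Reln* and *Slc17a6*) and 4 for the claustrum or deep cortex (*Nr4a2*, *Prss12*, *Nov* and *Gnb4*). Their probes were found by gene name, which gave 20 of 56605 probes, and 8 of the 10 genes passed the background limit on at least 1 array. The genes were chosen by the difference between Cx30 KO and WT on the same arrays, so the ratios given here describe them and test nothing. Between Cx30 KO and WT striata, *Cdhr1*, *Nr4a2*, *Prss12*, *Nov* and *Gnb4* were higher in Cx30 KO. The other detected olfactory bulb genes were close to equal (*Doc2g* and *Reln*) or barely above background (*Tbx21*), and *Eomes* and *Slc17a6* were not well above background on either array.

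The values come from 2 single-colour arrays of striatal RNA, 1 for WT mice and 1 for Cx30 KO mice, the strain labels being C57BL/6J and Cx30-LacZ. Each array carried the pooled RNA of 2 male mice aged 8 weeks, killed on day 1 after 4 injections of 20 mg/kg MPTP, a toxin of dopamine neurons, given 2 h apart. Both groups had received MPTP, and mice given normal saline were not analysed here. According to the methods, sperm of heterozygous Cx30 KO males fertilised C57BL/6 oocytes, and WT and Cx30 KO mice came from crosses between heterozygotes, so the strain label of the WT pool and the methods differ. With 1 pool for each genotype there were no replicates, no test between genotypes was possible, and genotype, dissection and single mice cannot be told apart. Signals are printed here before scaling. Ratios and fold differences were taken after scaling by the 75th percentile of each array (401 in WT, 382 in Cx30 KO), unless another normalisation is named. A fold value thus differs slightly from the quotient of the printed signals. The deleted gene, *Gjb6*, which encodes the astrocytic gap junction protein Cx30, read 1788 in WT against 111 in Cx30 KO, 15.4-fold lower after scaling. All 9 striatal projection neuron genes examined, among them *Drd1* (listed as *Drd1a*) and *Penk*, were well above background on both arrays, and none (0) met the criteria for a difference given below.

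The olfactory bulb sends its output to the olfactory cortex through mitral and tufted cells, glutamatergic neurons that use the T-box transcription factors Tbr1, Eomes (Tbr2) and Tbx21 (T-bet) in their development. The claustrum is a thin sheet of glutamatergic neurons between the striatum and the insular cortex, linked with most of the cortical mantle, and its neurons share several markers with the deepest cortical layers and with the endopiriform nucleus. Neither cell type has its cell bodies within the striatum proper. The striatum is made up mainly of GABAergic spiny projection neurons.

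The probes are DNA strands of 60 bases. The sequences below are shown because each has 1 reading frame without a stop codon over its 60 bases. Whether they lie in coding sequence was not tested. They include probes of genes that differed, of genes that did not and of a gene at background. The Nr4a2 and Gnb4 probes gave higher signals in Cx30 KO, whereas the Doc2g and Reln probes gave nearly equal signals and the Eomes probe stayed at background. They are written 5′ to 3′ with mm9 positions, as read from the array files.
Nr4a2, chr2:56960699-56960758, minus strand: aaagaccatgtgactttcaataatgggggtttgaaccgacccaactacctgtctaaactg
Gnb4, chr3:32488819-32488964, minus strand: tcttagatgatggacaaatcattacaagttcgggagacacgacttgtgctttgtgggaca
Doc2g, chr19:4006386-4006557, plus strand: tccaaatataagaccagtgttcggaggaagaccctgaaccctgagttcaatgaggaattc
Reln, chr5:21404915-21404974, minus strand: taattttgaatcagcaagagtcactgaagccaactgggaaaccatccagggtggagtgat
Eomes, chr9:118390460-118391121, plus strand: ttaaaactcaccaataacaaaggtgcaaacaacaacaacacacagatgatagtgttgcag
The positions of the Gnb4, Doc2g and Eomes probes span 146, 172 and 662 bases of the genome, more than the 60 bases of the probe, so these 3 probes cross a splice junction and read spliced RNA.

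Among the olfactory bulb genes, *Cdhr1* differed most. It encodes a cadherin-related protein, also called protocadherin 21, of mitral and tufted cells and of photoreceptors, and has 1 probe (NM_130878, chromosome 14, 37891387 to 37891446). Its processed signal, in arbitrary units with the scanner software's error, was 59.8 ± 7.17 in WT and 1444 ± 144 in Cx30 KO. Log2 ratios here are always Cx30 KO over WT. After scaling, the level in Cx30 KO was 25.4-fold higher, or 4.67 on the log2 scale. This was the highest ratio of the 20305 genes measured above background on both arrays. The difference was present in the brightness of the spot before any correction, at 152 in WT against a local background of 94.5, and at 1761 in Cx30 KO against 95.0. In pooled tissue, more cells of a type and more RNA per cell cannot be told apart.

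*Doc2g* and *Reln* did not share this difference. *Doc2g*, a C2 domain protein of the double C2 family, read 79.7 ± 9.34 in WT and 75.4 ± 8.68 in Cx30 KO (log2 ratio −0.01). *Reln*, the secreted glycoprotein reelin that guides neuronal layering, read 1939 ± 194 in WT and 2149 ± 215 in Cx30 KO at its brightest probe (log2 ratio 0.22). At these probes the error ranges of the arrays overlap for both genes. Of the 5 dimmer *Reln* probes, the one whose sequence is shown above read 95.2 ± 10.5 in WT and 93.9 ± 10.2 in Cx30 KO (0.05). A pair of probes for other transcripts had log2 ratios of −0.47 (106.8 ± 11.6 in WT, 73.5 ± 8.38 in Cx30 KO, error ranges apart) and −0.01, and the remaining probes fell under the background limit on 1 or both arrays. The dimmer probes thus showed no rise in Cx30 KO.

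*Tbx21* was the faintest detected gene of the group. Its probe read 6.80 ± 4.42 in WT, not well above background, and 21.1 ± 4.38 in Cx30 KO, just over the lowest signal that counted there (17.4). With WT set at the lowest signal well above background there (19.8), the ratio was 1.12-fold. The error of the Cx30 KO signal reaches under that limit, so no rise is read from *Tbx21*. The pair of *Eomes* probes read 5.43 and 5.31 in WT and 3.72 and 4.68 in Cx30 KO, where the errors were between 3.74 and 5.32. *Slc17a6*, the vesicular glutamate transporter VGLUT2, read 11.9 ± 4.91 in WT and 4.21 ± 4.25 in Cx30 KO. Both *Eomes* values and the *Slc17a6* value in Cx30 KO, and the second *Eomes* value in WT, are surrogates that the scanner software put in place of signals too low to measure. No ratio is given for *Eomes* and *Slc17a6*, and a low level of either transcript could not be measured with these probes.

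**Figure D1:**
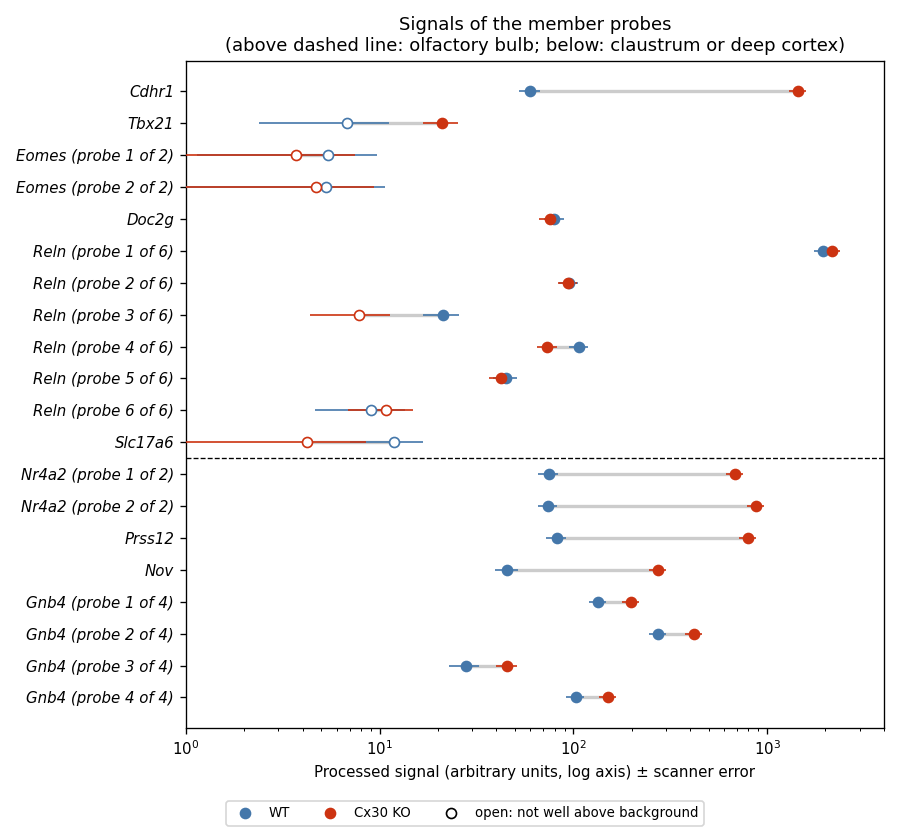
Processed signal (arbitrary units, log axis) of each of the 20 probes in WT (blue) and Cx30 KO (red); bars are the scanner software's error, those reaching under 1 end at the axis, and open circles were not well above background. Probes of a gene are numbered by genome position; *Cdhr1*, *Nr4a2*, *Prss12* and *Nov* are far apart between the arrays, *Gnb4* is moderately higher in Cx30 KO at all 4 probes, *Doc2g* and the brightest *Reln* probe overlap between the arrays, probes 3 and 4 of *Reln* read lower in Cx30 KO, and *Tbx21*, *Eomes* and *Slc17a6* lie near or at background.

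Each of the claustral genes read higher in Cx30 KO. *Nr4a2* encodes the orphan nuclear receptor Nurr1, found in claustral and deep cortical neurons and in midbrain dopamine neurons. Its brighter probe read 74.2 ± 8.45 in WT and 871 ± 87.2 in Cx30 KO, which is 12.3-fold higher (log2 ratio 3.62). The other probe, on the same chromosome (2, 56960000 to 56960059), read 74.4 ± 8.65 and 682 ± 68.3, which is 9.63-fold higher (3.27). Both probes thus read higher in Cx30 KO. Across 7147 genes with several probes, the SD of the log2 ratio between probes of a gene was 0.26, which covers the probes and not the mice.

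*Prss12* encodes neurotrypsin, a secreted serine protease that cleaves agrin at synapses, and has 1 probe (NM_008939, chromosome 3, 123209409 to 123209468). It read 82.1 ± 9.72 in WT and 798 ± 79.9 in Cx30 KO, which is 10.2-fold higher (3.35). *Nov*, now named *Ccn3*, encodes a secreted matricellular protein and was read by a probe on chromosome 15 (NM_010930, 54585236 to 54585295). Its probe read 45.4 ± 6.21 in WT and 272 ± 27.5 in Cx30 KO, which is 6.30-fold higher (2.66). By ratio, *Nr4a2*, *Prss12* and *Nov* took ranks 3, 4 and 5 of the 20305 genes. Directly before them came *Cdhr1* and the pan-cortical excitatory neuron gene *Neurod2* (3.67), which is not a member. In WT, *Nr4a2*, *Prss12* and *Nov* were dim, but over the lowest signal that counted there (19.8).

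*Gnb4*, the beta 4 subunit of heterotrimeric G proteins, differed least. Its brightest probe read 274 ± 27.9 in WT and 417 ± 41.9 in Cx30 KO, which is 1.60-fold higher (0.68), with error ranges that do not overlap. The other 3 probes had log2 ratios of 0.63, 0.63 and 0.78, so all 4 probes were higher in Cx30 KO by similar amounts. Its rank was 547 of 20305.

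**Figure D2:**
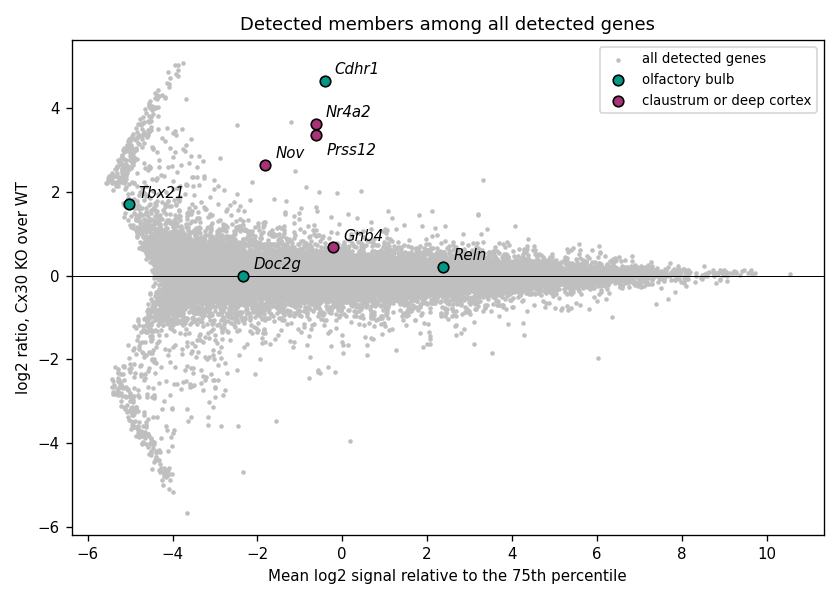
Log2 ratio of Cx30 KO over WT against the mean log2 signal relative to each array's 75th percentile, for 22008 detected genes (grey) and the 8 detected members (green for olfactory bulb, purple for claustrum or deep cortex). *Cdhr1*, *Nr4a2*, *Prss12* and *Nov* stand above the cloud of genes of similar signal, *Gnb4* lies at its upper edge, and *Reln* and *Doc2g* lie within it.

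The criteria for a difference were those of the study, a ratio of at least 1.5 with a Z-score of at least 2.0, or a ratio of at most 0.66 with a Z-score of at most −2.0. The Z-score was taken here from the 1000 probes nearest in signal. By these criteria, 5 of the 8 detected members were higher in Cx30 KO and none (0) was lower, whereas 2.37% of all 22008 detected genes were higher. Since this contrast chose the members, nothing is read from their share. The count was 1 of 4 detected genes (6 listed) for the olfactory bulb and 4 of 4 for the claustrum. *Gnb4* passed narrowly, with a Z-score of 2.05 at its brightest probe. Its other probes had Z-scores between 1.11 and 1.59 and did not meet the criteria. The other 4 higher members had Z-scores from 6.28 to 13.4. The median log2 ratio was 3.00 for the claustral genes and 0.96 for the olfactory bulb genes, against 0.03 for all detected genes. With *Tbx21* at its bound, the olfactory bulb median was 0.19, so it does not describe a shift shared by that group.

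Other genes of the same cell types, taken from lists, followed a mixed pattern. Of 10 other mitral and tufted cell genes, 7 were detected, with 3 higher, 1 lower and 3 that met neither criterion, and a median log2 ratio of 0.48. The higher genes were the vesicular glutamate transporter VGLUT1 gene *Slc17a7*, the T-box gene *Tbr1* (2.50) and the neuropeptide gene *Cck* (2.30). *Slc17a7* read 20.8 in WT, not well above background, and 238 in Cx30 KO, a level at least 12.1-fold higher. All 3 higher genes are also made by cortical neurons. The axonal membrane protein gene *Ntng1* was lower (−0.75), where 3.39% of all detected genes were lower, and *Barhl2*, *Shisa3* and *Ebf3* were not well above background. *Olfm1* (0.38), *Pkib* (0.08) and *Lbhd2* (0.48, detected in Cx30 KO only) met neither criterion.

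Few genes of the other cells of the olfactory bulb met the criteria. Of 12 genes of bulb interneurons and migrating neuroblasts, 10 were detected, 1 was higher and none (0) was lower, with a median of 0.07. The higher gene was *Vip* (1.77), a neuropeptide that cortical interneurons also make. Of the 10 detected genes, 5 had positive and 5 had negative log2 ratios. Besides *Vip*, the positive ones were *Trh* (0.51), *Dlx2* (0.30), *Dlx1* (0.21) and *Tshz1* (0.15). The negative ones were *Sp8* (−0.63, detected in WT only), *Etv1* (−0.58), *Prokr2* (−0.55), *Dcx* (−0.19), which marks migrating neuroblasts, and *Th* (−0.01). All 4 genes of the olfactory nerve layer were detected, with none (0) higher, 1 lower and a median of 0.39, or 0.27 with bounds. The marker of olfactory sensory neurons *Omp* was faint, with 28.9 in WT and 52.3 in Cx30 KO (0.93). *Npy* had 0.50 and *Frzb*, detected in Cx30 KO only, had 0.28. The lower gene was *Fabp7* (−1.15), a fatty acid-binding protein also of astrocytes.

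Of 7 other genes of the claustrum and endopiriform nucleus, 6 were on the array under the names searched and all 6 were detected, with 2 higher and none (0) lower. *Gng2*, a G protein gamma subunit used as a marker of the claustrum, read 1250 in WT and 2298 in Cx30 KO (0.95). *Oprk1*, the kappa opioid receptor, read 912 and 1421 (0.71). *Lxn*, which encodes latexin, went the other way (−0.56) without meeting the criteria, and *Synpr* (0.22) also met neither. *Ntng2* and *Car3* passed the background limit in Cx30 KO only, at signals near the lowest that counted, and *Smim32* was not found. *Ntng2* read 11.1 in WT and 18.6 in Cx30 KO, whereas *Car3* read 22.8 and 21.6, so its signals were nearly equal. The median of the 6 genes was 0.47, and 0.11 once *Ntng2* and *Car3* were set to their bounds.

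Genes of the deepest cortical layers were split between higher and level. Of 11 genes of cortical layers 6 and 6b, all detected, 5 were higher, none (0) was lower and 6 met neither criterion, with a median of 0.31. The higher genes were *Cplx3* (1.95), *Ntsr1* (1.54), *Ctgf* (1.47, now *Ccn2*), *Crym* (0.66) and *Fezf2*, which passed the background limit only in Cx30 KO, where it was at least 3.37-fold higher. *Cplx3* and *Ctgf* mark layer 6b, and *Ntsr1* marks corticothalamic neurons of layer 6. Of the 6 that met neither criterion, *Nxph4* (0.31) and *Sulf1* (0.28) had the highest ratios. *Foxp2*, *Tle4*, *Syt6* and *Rprm* lay between −0.13 and 0.03.

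Most pan-cortical excitatory neuron genes were also higher. All 6 were detected and 5 met the criteria for higher genes. Their median was 2.86 on the log2 scale, and 2.14 with bounds for the genes detected on 1 array. Of these, 3 were well above background on both arrays, *Neurod2* (3.67), *Tbr1* (2.50) and *Nrn1* (1.26), and 2 (*Slc17a7* and *Neurod6*) only in Cx30 KO, while *Emx1* missed the criteria. The claustral genes were thus not the only genes of pallial projection neurons that were higher, and the part of cortical tissue in their values was not tested.

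Genes of other regions that border the striatum did not meet the criteria. None (0) of 6 detected thalamic genes, 6 septal and pallidal genes and 4 genes of Cajal-Retzius cells and reelin interneurons met the criteria, with medians of −0.21, −0.05 and 0.05. The ratio farthest from 0 among them was that of *Nkx2-1*, a transcription factor of pallidal neurons (−0.69). The 9 striatal projection neuron genes had a median of −0.16 and lay between −0.40 and 0.23. *Slc17a6* is a marker of thalamic neurons as well as of the bulb, but it was at background on both arrays and adds nothing to these thalamic values.

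**Figure D3:**
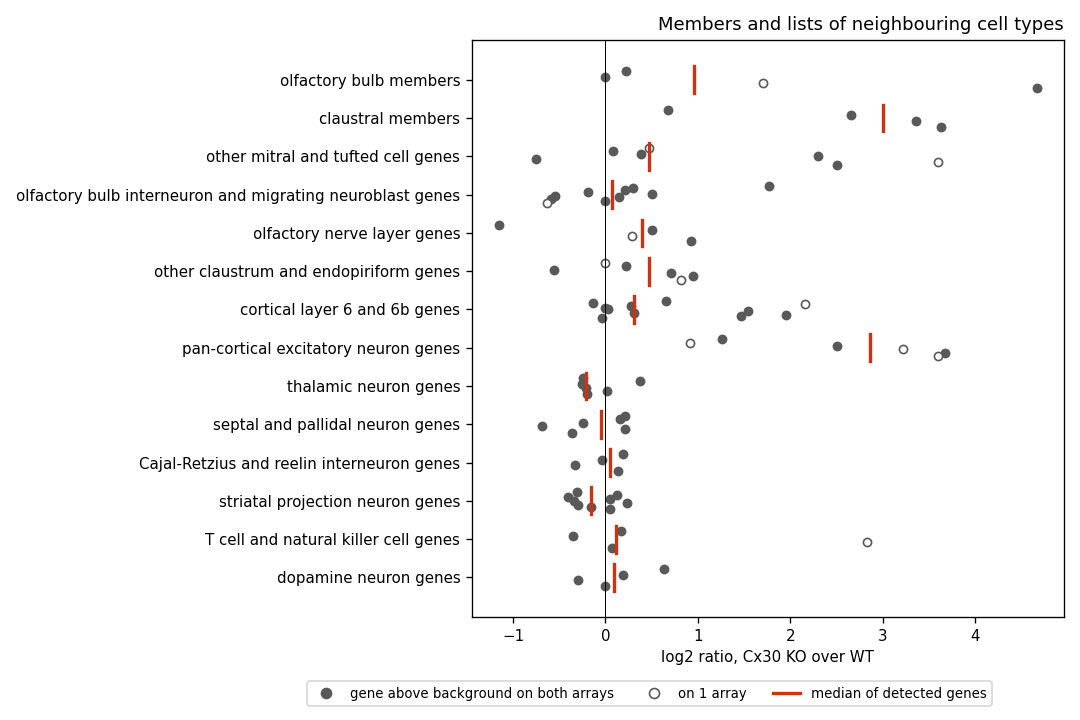
Log2 ratio of Cx30 KO over WT (x axis) for each detected gene of the members and of the lists for neighbouring cell types; filled circles were well above background on both arrays, open circles on 1 array, and red lines are medians. The claustral members, chosen by this contrast, have a median of 3.00, and the pan-cortical genes 2.86 (2.14 with bounds). The other claustrum and endopiriform genes (0.47, or 0.11 with bounds) and the layer 6 and 6b genes (0.31) have lower medians. The medians of the thalamic, septal, reelin interneuron and striatal lists lie between −0.21 and 0.05.

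Relatives of the members within their gene families differed from family to family. In the NR4A family, *Nr4a2* was higher, whereas *Nr4a1*, an activity-induced gene, was lower (7245 in WT, 3537 in Cx30 KO, −0.96), and *Nr4a3* had −0.10. Among the G protein beta subunits, *Gnb1* (−0.01), *Gnb2* (0.09) and *Gnb5* (−0.06) were level beside *Gnb4*. In the double C2 family, *Doc2a* read 112 in WT and 285 in Cx30 KO (1.42) and met the criteria, unlike *Doc2g* and *Doc2b* (−0.03).

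In the CCN family, *Nov* and *Ctgf* were higher, *Cyr61* had −0.16, and *Wisp1*, under the background limit in WT, was at least 3.48-fold higher. *Wisp2*, also detected only in Cx30 KO (5.94 in WT, 26.8 in Cx30 KO), was at least 1.42-fold higher without meeting the criteria, *Wisp3* was not well above background, and the median log2 ratio of the 5 detected CCN genes was 2.24, or 1.47 with bounds. The cadherin-related genes *Cdhr2*, *Cdhr3* and *Cdhr4* had log2 ratios between 0.10 and 0.48, against 4.67 for *Cdhr1*. The reelin receptors *Lrp8* (0.06) and *Vldlr* (0.18) and the adaptor *Dab1* (0.25) were as level as *Reln* itself.

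Several members are also made by cells other than projection neurons. *Tbx21* and *Eomes* are transcription factors of T cells and natural killer cells, and of 10 genes of those cells 4 were detected. Of these, *Gzmb*, the cytotoxic protease granzyme B, was detected in Cx30 KO only (64.6, at least 3.44-fold higher), while *Cd3e* (0.07), *Prf1* (−0.35) and *Klrb1c* (0.16) met neither criterion. *Cd3g*, *Cd8a*, *Ncr1*, *Nkg7*, *Gzma* and *Ifng* were not well above background. *Nr4a2* also marks dopamine neurons, and of 6 genes of those neurons 4 were detected with none (0) meeting the criteria. *Pitx3* had the highest ratio of them (0.64) at faint signals, 22.2 in WT and 32.9 in Cx30 KO. *Th* had −0.01, *Ddc* 0.19 and *Slc18a2* −0.30, and *Slc6a3*, the dopamine transporter, was not well above background.

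*Cdhr1* shares chromosome 14 with the deleted gene. Its probe lies 19.9 Mb from that of *Gjb6* on mm9. Of 3 other detected genes within 1 Mb of *Cdhr1*, *2610528A11Rik* was higher in Cx30 KO (2.25), and *Ccser2* (0.17) and *Ghitm* (−0.13) met neither criterion. The part of the chromosome in the *Cdhr1* value was not tested. The other members lie on other chromosomes.

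The ratios of the members were compared under the other normalisations. With the authors' normalised values, quantile normalisation or scaling by the array median, *Cdhr1* stayed between 4.62 and 4.64, and *Tbx21*, which moved most, between 1.51 and 1.66. With normexp background correction, *Cdhr1* had 3.78, *Nr4a2* 2.91, *Prss12* 2.44, *Nov* 1.74, *Gnb4* 0.52 and *Tbx21* 0.22, and *Gnb4*, with a Z-score of 1.91, no longer met the criteria. Averaging the detected probes of a gene turned *Reln* to −0.31, so no direction is given for it. That average includes a probe with −1.36 (21.2 in WT, 7.85 in Cx30 KO), which was under the background limit in Cx30 KO.

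**Figure D4:**
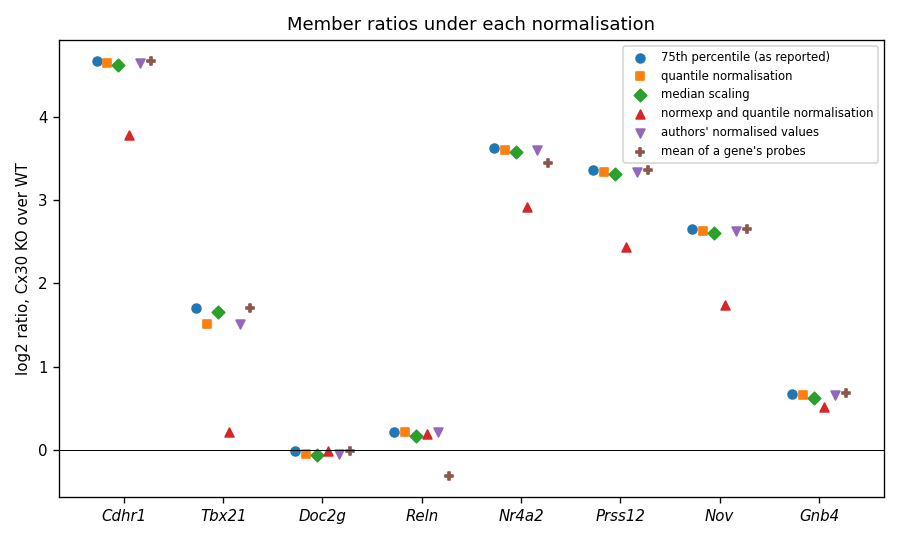
Log2 ratio of Cx30 KO over WT (y axis) of the 8 detected members under 6 ways to normalise or summarise the signals (symbols). *Cdhr1*, *Nr4a2*, *Prss12* and *Nov* stay above 1.7 in each, *Gnb4* stays between 0.52 and 0.68, and *Doc2g* and *Reln* lie around 0.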

How the data were processed

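Members and gene lists were chosen with earlier results of these data known. The authors hybridised Cy3-labelled RNA and extracted spots with Agilent Feature Extraction (version 9.5.1.1 in the submitters' processing notes, 10.7.1.1 in the file headers). The deposited processed signals are linear intensities. Per the file headers, both arrays lay on the same slide, spatial and multiplicative detrending was on, local background subtraction was off, and signals too low to measure were replaced by surrogate values. The ± values are the software's error of a spot, not a spread between mice. The authors' value table was also used, and 99.991% of its values lay within 1% of quantile-normalised processed signals (median 41.2 in both columns).

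Control spots and outlier spots were removed, repeated spots were averaged per probe on the log2 scale, and the 75th percentile of each array (401 in WT, 382 in Cx30 KO) was subtracted. Detection required the scanner software's well-above-background mark on 50% or more of a probe's spots (56.6% of probes in WT, 58.2% in Cx30 KO), and 0 probes were saturated. The brightest detected probe represented a gene, and older symbols were updated with RefSeq names (GRCm38.p6 table) for 1897 probes. Ratios of genes detected on 1 array were bounded, on the dim array, by the lowest detected signal or by the dim signal itself where that was higher. These bounds do not include the scanner software's error. A single spot's log2 ratio had an SD of 0.08 (288 repeated probes). The number of arrays limits the precision.

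All 10 members are named, as are list genes that met the criteria, up to 4 further genes of a list and family relatives. A gene of the pan-cortical list is not reported here and is left out of its counts and median. Genes of similar pattern were not sought, since 2 arrays give 1 difference for each gene. *Ccser2*, *Ghitm*, *2610528A11Rik* and some list genes named beyond this rule were chosen after their values were seen. Python 3.11.15, R 4.3.3 and limma 3.58.1 (normexp, offset 50) were used. Alternatives covered scaling, background correction, filters, probe summary, Z-score and ratio limits.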

Additional observations from a re-analysis of the deposited data

How the results depend on the processing

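*Cdhr1*, *Nr4a2*, *Prss12* and *Nov* met the criteria for higher genes in all 10 alternatives tried. *Gnb4* met them in 6, and missed them with normexp correction, with the mean of its probes (Z-score 1.58), with a Z-score over all probes (1.09) and with ratio limits of 2 and 0.5. With a Z-score over all probes, *Tbx21* met the criteria, so that 2 olfactory bulb genes did. The median log2 ratio of the claustral genes was 2.09 with normexp correction. That of the olfactory bulb genes was 0.20 with normexp correction, 0.11 without a filter on dim probes, which brings in *Eomes* and *Slc17a6*, and 0.22 for genes detected on both arrays, which leaves out *Tbx21*. Over all genes, the count of higher genes was 522, against 328 with genes detected on both arrays only and 340 with ratio limits of 2 and 0.5. No ratio of a member that met the criteria changed sign. No paired analysis was possible because each genotype has 1 array, and for the same reason no replicate could be left out. Signals near background limit *Tbx21*, *Eomes* and *Slc17a6*.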
